A study of Mus musculus with 8 samples.

Results

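The genes described here are 9 components of the Hedgehog pathway, *Shh*, *Ptch1*, *Smo*, *Gli1*, *Gli2*, *Gli3*, *Hhip*, *Boc* and *Gas1*. They were chosen by symbol: each was found in the NCBIM37 annotation and its Ensembl identifier was looked up in the count files, which list 36536 genes. All 9 were present. They were measured by RNA-seq in 8 libraries from the cochleas of *LFng-GFP* BAC transgenic mice, a line labelled B6;FVB-Tg(Lfng-EGFP)HM340Gsat/Mmucd, in which the regulatory region of *Lfng* drives GFP in supporting cells.

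There were 4 groups of 2 replicates each. P1 GFP+ and P6 GFP+ were the brightest sorted cells of mice at P1 and P6, the postnatal days given in the labels. P1 GFP- and P6 GFP- were unlabelled cells of the same cochleas. All 4 groups carried the transgene, and all were freshly dissected, dissociated and sorted, with no culture and no drug. According to the methods of the study, bright GFP marks Deiters' cells, outer pillar cells, and the inner phalangeal and border cells, while inner pillar cells lack it, so that GFP+ is several supporting cell types together. GFP- is a mixture of the unlabelled cells of the dissected tissue, and cells of low GFP were, per those methods, collected in neither population. Cells of many cochleas were pooled for each library, and the labels do not say whether the 2 replicates came from separate animals, so the p-values measure the spread between these libraries. The lateral wall and stria vascularis were taken off more fully at P1 than at P6. In the GFP- libraries, age and dissection therefore cannot be told apart.

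Hedgehog ligands bind Ptch1, which otherwise keeps Smo inactive, and binding is helped by the coreceptors Boc, Cdon and Gas1. Active Smo, which works in the primary cilium, turns the Gli factors from repressors into activators of transcription. *Gli1*, *Ptch1* and *Hhip* are themselves induced by the pathway in many tissues, so their transcripts are widely read as a record of signalling. In the embryonic cochlea, Shh from the spiral ganglion is known to hold back hair cell differentiation, and Hedgehog signals from the otic epithelium act on the surrounding mesenchyme, which forms the capsule.

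The promoters of *Ptch1* and *Hhip* are shown because both genes are classical Gli targets and their transcripts were distributed differently between the sorted populations, at 116% and 3.18% of the GFP- level in P1 GFP+ cells. The sequences are the 250 bases before the transcription start from RefSeq on build GRCm38.p6, written 5′ to 3′ on the strand of the gene with CG dinucleotides in capitals. *Ptch1* lies at chr13:63565736-63565985, and *Hhip* at chr8:80058009-80058258, both on the minus strand.
Ptch1: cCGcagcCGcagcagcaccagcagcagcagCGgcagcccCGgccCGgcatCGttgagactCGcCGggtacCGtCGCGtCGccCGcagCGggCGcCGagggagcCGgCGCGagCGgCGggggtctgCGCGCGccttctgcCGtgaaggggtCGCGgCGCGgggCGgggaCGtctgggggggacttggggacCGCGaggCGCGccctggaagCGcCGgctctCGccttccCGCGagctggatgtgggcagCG
Hhip: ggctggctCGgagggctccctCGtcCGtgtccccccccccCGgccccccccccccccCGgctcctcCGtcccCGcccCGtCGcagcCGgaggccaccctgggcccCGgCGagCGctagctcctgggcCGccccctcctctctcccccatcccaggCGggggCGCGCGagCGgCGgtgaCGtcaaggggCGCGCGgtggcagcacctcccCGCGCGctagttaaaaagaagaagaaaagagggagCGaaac
The *Ptch1* window was 78.4% G or C with 41 CG dinucleotides and the *Hhip* window 76.0% with 28. Over all 32851 windows of the RefSeq table the medians were 52.4% and 6. The table held 6 of the 9 members (*Gas1*, *Gli2*, *Gli3*, *Hhip*, *Ptch1* and *Smo*). The Gli consensus GACCACCCA, searched on both strands as its 9 letters with no mismatch, was in none of those 6 windows (0 of 6) and in 83 of the 32851 windows, or 0.253%.

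Depth and the composition of the sort were examined first. Counts on genes ranged from 17769024 to 67695039 per library. The supporting cell markers *Lfng*, *Prox1*, *Sox2*, *Fgfr3* and *Hes5* were higher in GFP+ cells at both ages in 5 of 5 cases. So were the hair cell markers *Myo7a*, *Pou4f3*, *Otof*, *Atoh1* and *Gfi1*, whose sum was 643% of the GFP- level at P1 and 529% at P6. Values given for supporting cells below therefore include any hair cell RNA in the sort, and its part was not tested. Markers of otic mesenchyme (*Pou3f4*, *Tbx18*, *Otos*, *Coch* and *Col3a1*) summed to 126 and 143 counts-per-million of the library's gene total (CPM) in P1 GFP+, against 6331 and 7349 in P1 GFP-. At P6 the 2 GFP+ libraries differed from each other. Replicate 1 had 303 CPM of these markers and replicate 2 had 985, against 6335 and 6748 in P6 GFP-, and none of the 5 genes was at 0 in both GFP+ libraries at either age. Replicate 2 of P6 GFP+ also had 4.19 times the endothelial, 3.54 times the osteoblast and 2.12 times the Schwann cell marker level of replicate 1, and 0.688 times its supporting cell marker level. For the members, and for each other gene called between GFP+ and GFP- at P6 that is named below, the P6 value is therefore given with and without that library. Calls with age in GFP+ cells are given likewise, except those of *Ccnd1* and *Bcl2*. In such bulk samples, fewer cells of a type and less RNA per cell cannot be told apart.

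*Shh* (ENSMUSG00000002633, NCBIM37 chr5:28783355-28793641, minus strand), the ligand, was close to absent from every library. It had 1 and 0 counts in P1 GFP+, 5 and 22 in P1 GFP-, 2 and 5 in P6 GFP+, and 32 and 30 in P6 GFP-. The highest library stood at 0.519 CPM, and a count of 0 in P1 GFP+ replicate 2 allows up to 0.121 CPM, for counting error only. GFP- libraries were higher than GFP+ libraries at each age without overlap, but *Shh* was too low to be tested at P1 and did not pass at P6 (log2 fold change -1.72 ± 0.53 SE, adjusted p = 0.055, edgeR, and -2.05 with adjusted p = 0.098 without P6 GFP+ replicate 2). Its exons share 291 bases with the lincRNA *9530036O11Rik* and 361 with the lincRNA *Gm17493* on the opposite strand, and the library kit does not mark strand, so reads there cannot be assigned with certainty. Spiral ganglion neuron markers (*Tubb3*, *Nefl*, *Nefm*, *Prph* and *Snap25*) summed to 42.7 and 43.8 CPM in P1 GFP+, 139 and 465 in P1 GFP-, 60.4 and 71.7 in P6 GFP+ and 101 and 69.1 in P6 GFP-. At P6, 3 of the 5 were lower in GFP+ cells, and *Prph* and *Tubb3* were higher. *Tubb3* stood at 35.2 and 28.2 CPM in P6 GFP+ against 18.2 and 12.6 in P6 GFP-. The part of spiral ganglion neurons in the *Shh* counts was not tested.

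Neither of the other ligands was higher in supporting cells by the test. *Ihh*, the ligand of growing cartilage, lay between 0.528 and 1.30 CPM in the 8 libraries and passed no comparison in the main fits. *Dhh*, the ligand known from Schwann cells, was the most abundant of the 3. It stood at 3.32 and 3.33 CPM in P1 GFP+, 21.2 and 23.9 in P1 GFP-, 11.8 and 13.8 in P6 GFP+ and 15.0 and 14.6 in P6 GFP-. At P1 it was 6.30-fold lower in GFP+ cells (adjusted p = 6.10e-05), at P6 the difference was 1.16-fold (adjusted p = 0.432), and in GFP+ cells it was 4.09-fold higher at P6 than at P1 (adjusted p = 0.0062, and 0.0639 without P1 GFP+ replicate 2). In GFP+ cells the summed Schwann cell markers also rose, from 417 and 359 CPM at P1 to 1104 and 2343 at P6. *Sox10*, which was higher in GFP+ than in GFP- cells, gave 275 and 286 CPM of the P1 sums. In GFP- cells the list rose from 732 and 783 CPM to 1365 and 1618, and *Dhh* did not rise. P6 GFP+ replicate 2 had 2.12 times the Schwann cell sum of replicate 1 and 1.18 times its *Dhh*. Without replicate 2 the rise of *Dhh* was 1.94 on the log2 scale, against 2.03 with it. The part of Schwann cells in the *Dhh* values was not tested.

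**Figure D1:**
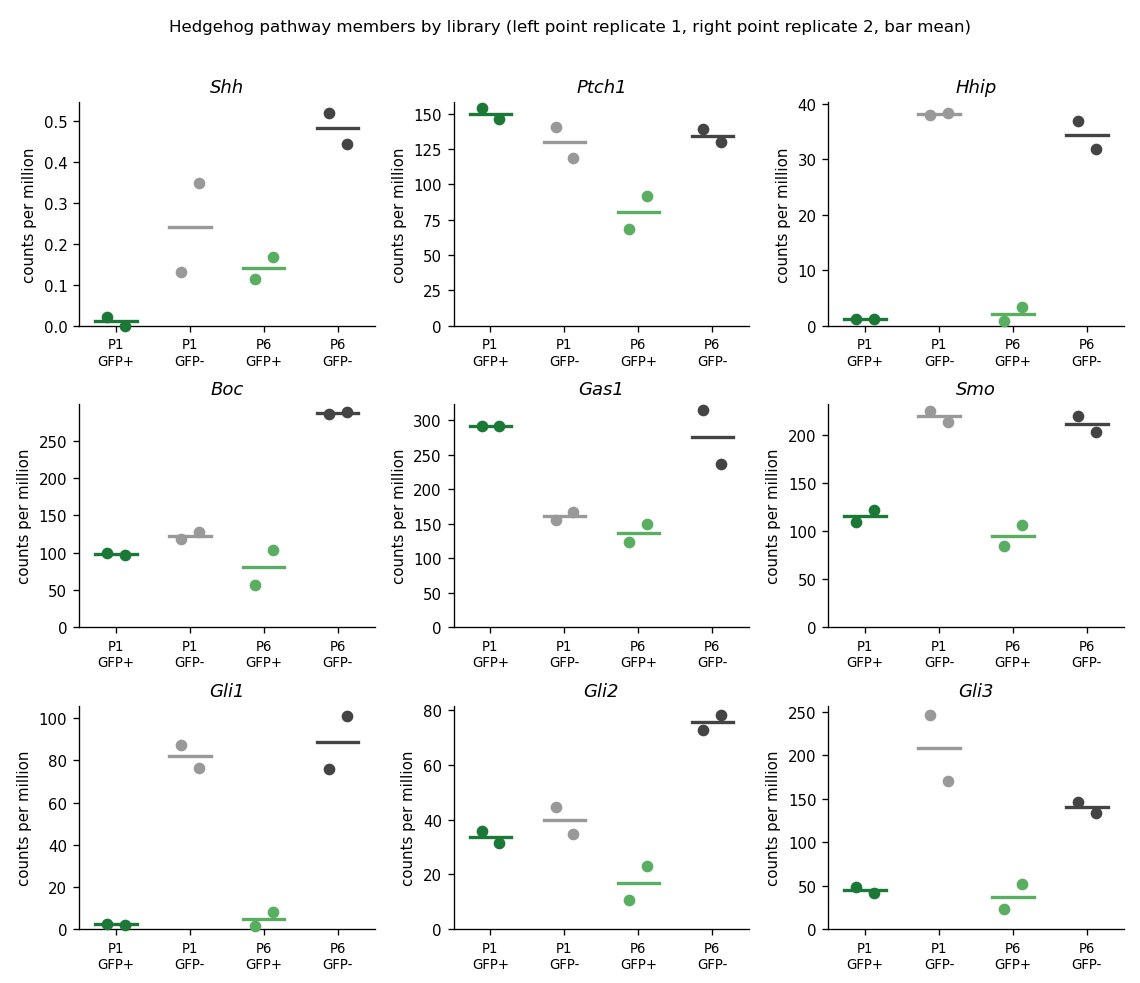
Level of each of the 9 genes in CPM (linear axes starting at 0, each with its own scale) in the 2 libraries of each group, with the group mean as a bar. *Gli1* and *Hhip* were at or below 8.30 CPM in the 4 GFP+ libraries and at or above 31.8 CPM in the 4 GFP- libraries, while *Ptch1* in P1 GFP+ (154 and 146) was above P1 GFP- (141 and 119).

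Among the receptors, *Ptch1* (ENSMUSG00000021466, chr13:63610261-63674474, minus strand), which binds the ligand and restrains Smo, was abundant in every population. It stood at 154 and 146 CPM in P1 GFP+, 141 and 119 in P1 GFP-, 68.7 and 91.7 in P6 GFP+, and 139 and 129.8 in P6 GFP-. At P1 both GFP+ libraries were above both GFP- libraries by a small margin, and at P6 both were below. At P1 the log2 fold change was 0.32 ± 0.12 SE and did not pass (adjusted p = 0.065), with a 95% interval of 0.03 to 0.61. At P6 *Ptch1* was 1.69-fold lower in GFP+ cells (log2 -0.76 ± 0.19, adjusted p = 0.0293), and -0.95 without replicate 2.

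*Hhip* (ENSMUSG00000064325, chr8:82490014-82581905, minus strand), a surface protein that binds and sequesters the ligand, was low in GFP+ cells at both ages. It stood at 1.27 and 1.17 CPM in P1 GFP+, 37.9 and 38.4 in P1 GFP-, 0.90 and 3.41 in P6 GFP+, and 36.9 and 31.8 in P6 GFP-. No GFP+ library came near a GFP- library. GFP+ was lower by a log2 value of -4.85 ± 0.15 at P1 (adjusted p = 1.14e-05) and of -3.94 ± 0.54 at P6 (15.3-fold, adjusted p = 0.00555). The P6 value was -5.23 without replicate 2, the GFP+ library with the higher *Hhip* count (102, against 16 in replicate 1).

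The coreceptors followed neither pattern. *Boc* (ENSMUSG00000022687, chr16:44485158-44559010, minus strand) stood at 99.9 and 96.9 CPM in P1 GFP+, 118 and 128 in P1 GFP-, 57.2 and 104 in P6 GFP+, and 286 and 288 in P6 GFP-. At P1 the populations were close (log2 -0.22 ± 0.09, adjusted p = 0.084), whereas at P6 *Boc* was 3.59-fold lower in GFP+ cells (log2 -1.84 ± 0.30, adjusted p = 0.00857, and -2.31 without replicate 2). *Gas1* (ENSMUSG00000052957, chr13:60275766-60278726, minus strand), a membrane-anchored coreceptor, stood at 291 CPM in both P1 GFP+ libraries, 155 and 167 in P1 GFP-, 123 and 149 in P6 GFP+, and 314 and 237 in P6 GFP-. It was the single member that passed as higher in supporting cells, by 1.94-fold at P1 (log2 0.96 ± 0.09, adjusted p = 0.000361). At P6 it was 2.04-fold lower (log2 -1.03 ± 0.22, adjusted p = 0.0186, and -1.14 without replicate 2). *Cdon*, the relative of *Boc*, was 1.61-fold higher in P1 GFP+ (122 and 116 CPM against 77.2 and 81.8, adjusted p = 0.00143, and 0.0871 with all 8 libraries in the fit). At P6 it was at 51.8 and 113 CPM in GFP+ and 65.1 and 64.4 in GFP- (adjusted p = 0.497), so that replicate 2 was above and replicate 1 below both GFP- libraries.

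*Smo* (ENSMUSG00000001761, chr6:29685694-29711365, plus strand), the membrane protein that transmits the signal, was lower in GFP+ cells at both ages. It stood at 109.8 and 122 CPM in P1 GFP+, 225 and 213 in P1 GFP-, 84.1 and 106 in P6 GFP+, and 219.8 and 203 in P6 GFP-. The log2 fold change was -0.82 ± 0.09 at P1 (adjusted p = 0.000653) and -1.16 ± 0.18 at P6 (adjusted p = 0.0082, and -1.31 without replicate 2). No GFP+ library overlapped a GFP- library.

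The 3 transcription factors differed in their distribution. *Gli1* (ENSMUSG00000025407, chr10:126766945-126778645, minus strand), the activator that is also a target, stood at 2.27 and 2.21 CPM in P1 GFP+, 87.3 and 76.5 in P1 GFP-, 1.74 and 8.30 in P6 GFP+, and 76.1 and 101 in P6 GFP-. GFP+ was lower by a log2 value of -5.08 ± 0.13 at P1 (adjusted p = 9.99e-06) and of -4.11 ± 0.65 at P6 (17.2-fold, adjusted p = 0.00824). Without P6 GFP+ replicate 2 the P6 value was -5.64, so this library moved the size of the estimate and not its direction. *Gli1* shares 55 exon bases with *Arhgap9* on the opposite strand. *Gli2* (ENSMUSG00000048402, chr1:120730709-120950196, minus strand), the main activator in many tissues, stood at 36.0 and 31.5 CPM in P1 GFP+, 44.7 and 34.8 in P1 GFP-, 10.7 and 23.2 in P6 GFP+, and 72.7 and 78.2 in P6 GFP-. It did not pass at P1 (log2 -0.12 ± 0.16, adjusted p = 0.54, 95% interval -0.51 to 0.26) and was 4.47-fold lower at P6 (log2 -2.16 ± 0.35, adjusted p = 0.00891, and -2.80 without replicate 2). *Gli3* (ENSMUSG00000021318, chr13:15555068-15821859, plus strand), the main repressor, stood at 48.5 and 41.8 CPM in P1 GFP+, 246 and 170.5 in P1 GFP-, 23.4 and 51.7 in P6 GFP+, and 146 and 134 in P6 GFP-. Its log2 fold change was -2.10 ± 0.20 at P1 (adjusted p = 0.00039) and -1.91 ± 0.36 at P6 (adjusted p = 0.0135, and -2.56 without replicate 2).

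**Figure D2:**
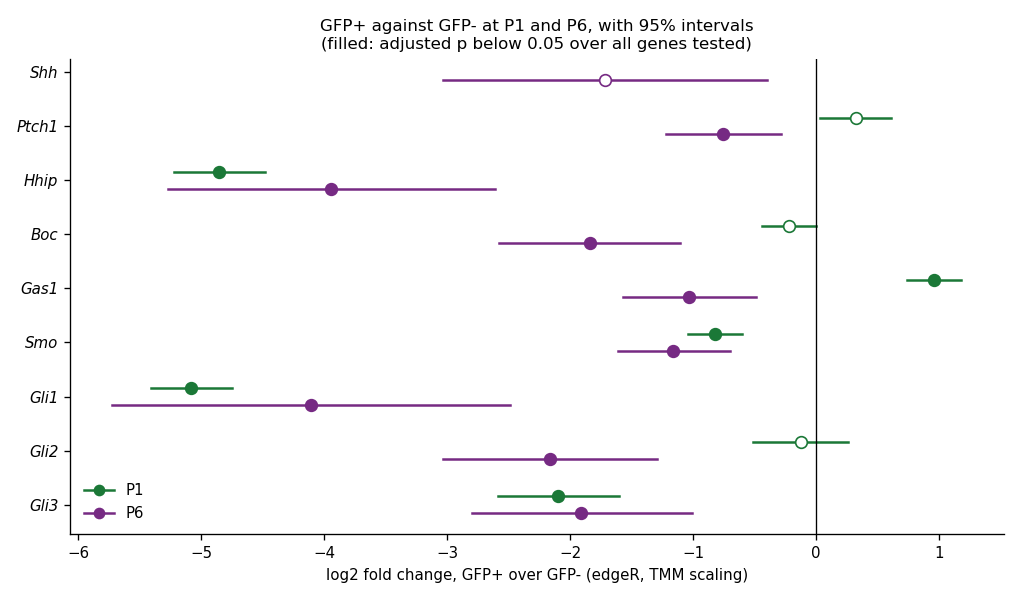
Log2 fold change of GFP+ over GFP- for each gene at P1 (green) and P6 (purple), as points with 95% intervals, filled where the adjusted p was below 0.05. *Gli1*, *Hhip*, *Gli3* and *Smo* lay to the left of 0 at both ages, *Gas1* moved from 0.96 to -1.03, and *Boc* and *Gli2* lay near 0 at P1 and at -1.84 and -2.16 at P6.

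Counted over the members, at P1 1 of the 8 tested was higher in GFP+ cells (*Gas1*) and 4 were lower (*Smo*, *Gli1*, *Gli3* and *Hhip*), where 25.5% of all 18682 genes tested were higher and 28.1% lower. At P6, 0 of 9 were higher and 8 were lower, all but *Shh*, where 15.5% of 18294 genes were higher and 17.9% lower. The median log2 fold change of the members was -0.52 at P1 and -1.84 at P6, and that of all genes 0.01 and -0.02. With the stricter criteria of the study, p and adjusted p below 0.01 and a fold above 4, *Gli1*, *Gli3* and *Hhip* were lower at P1 (3 members, 11.4% of all genes) and *Gli1*, *Gli2* and *Hhip* at P6 (3 members, 3.1% of all genes). At P6 the calls of *Ptch1*, *Smo* and *Gas1* were lost when either GFP- library was left out, with adjusted p from 0.0531 to 0.223.

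The residual *Gli1* and *Hhip* in sorted supporting cells was set beside markers of cells outside the gate. In P1 GFP+, *Gli1* was at 2.77% and 2.70% of the GFP- mean and *Hhip* at 3.31% and 3.05%, and the summed otic mesenchyme markers at 2.09% and 1.85%. At P6, *Gli1* was at 1.97% in replicate 1 and 9.37% in replicate 2, *Hhip* at 2.62% and 9.95%, and the mesenchyme markers at 4.63% and 15.1%. Replicate 2, the library with more mesenchymal, endothelial and Schwann cell RNA, had more of every member. The share of all genes higher in that library was not counted, so this is not a result about the members. For *Shh* it rested on 2 counts in replicate 1 and 5 in replicate 2. The level in replicate 2 over that in replicate 1 was 4.76 for *Gli1* and 3.79 for *Hhip*. The ratio was 2.21 for *Gli3*, 2.17 for *Gli2*, 1.82 for *Boc*, 1.49 for *Shh*, 1.34 for *Ptch1*, 1.27 for *Smo* and 1.21 for *Gas1*. *Ptch1* (51.0% and 68.1%), *Smo* (39.8% and 50.3%) and *Gas1* (44.7% and 54.1%) were above the otic mesenchyme percentage in both P6 libraries, and in replicate 2 below the summed endothelial and Schwann cell markers, at 157% each. The part of other cells in the residual *Gli1* and *Hhip*, or in the other members, was not tested.

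**Figure D3:**
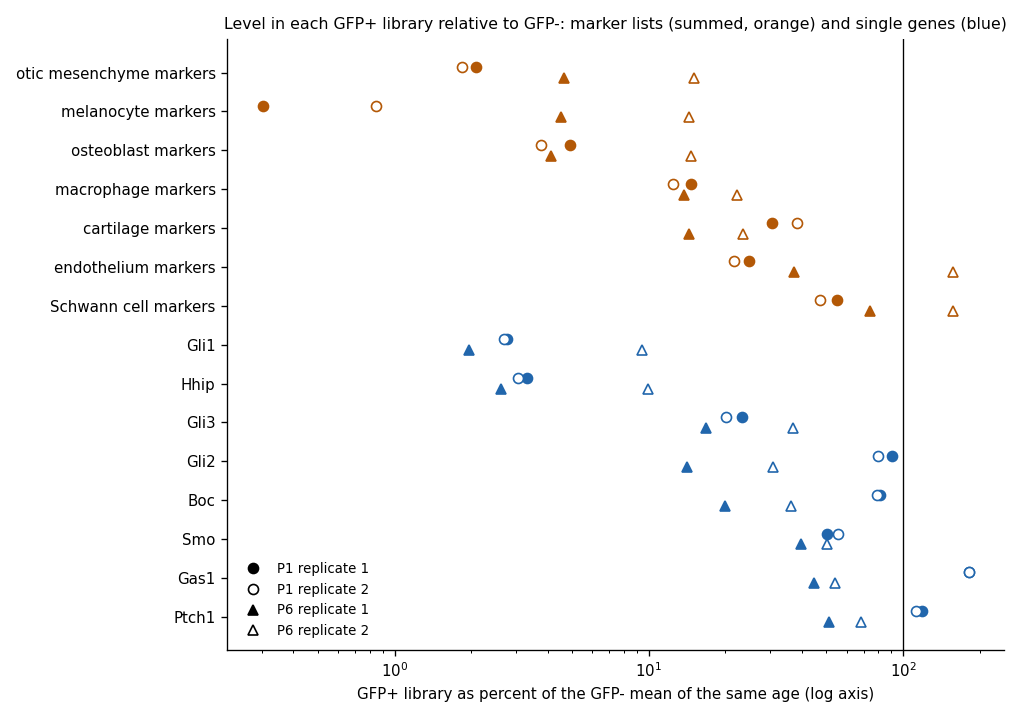
Level in each GFP+ library as a percentage of the GFP- mean of the same age (log axis), for summed marker lists in orange and single genes in blue, circles for P1, triangles for P6, filled for replicate 1 and open for replicate 2. *Gli1* and *Hhip* lay from 1.97% to 9.95%, whereas *Smo*, *Gas1* and *Ptch1* lay between 39.8% and 181%. In each P1 library *Gli1* and *Hhip* were between the otic mesenchyme and osteoblast lists, and in each P6 library below both lists.

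To compare genes with each other, CPM were divided by the length of the exons in kilobases. In P1 GFP+ cells *Gas1* was first at 98.2 CPM per kilobase (range 98.1 to 98.3), followed by *Smo* at 30.6, *Ptch1* at 22.9 and *Boc* at 22.1, of which *Ptch1* and *Boc* overlapped. *Gli2* (4.92) and *Gli3* (4.71) overlapped each other, and *Gli1* (0.592), *Hhip* (0.248) and *Shh* (0.00405) followed without overlap. Supporting cells at P1 therefore had transcripts of the receptor, both coreceptors and the transducer at higher levels per length than those of any Gli factor. In P1 GFP- cells *Gli1* (21.7), *Gli3* (21.7) and *Ptch1* (19.7) overlapped at like levels, below *Smo* (57.9) and *Gas1* (54.4), which overlapped each other. In P6 GFP- cells the order began with *Gas1* (93.0), *Boc* (64.5) and *Smo* (55.9), and *Gli1* (23.4), which overlapped *Ptch1* (20.5), was above *Gli3* (14.6) and *Gli2* (11). In P6 GFP+ cells *Gas1* (45.9), *Smo* (25.2), *Boc* (18.1) and *Ptch1* (12.2) again led, and *Smo* with *Boc*, *Boc* with *Ptch1*, and every neighbouring pair from *Gli3* to *Hhip* overlapped. Without the division by length this last order stayed the same, and the others moved. *Boc* was then first in P6 GFP-, and *Gli1* went from rank 4 to 6, below *Gli3* and *Ptch1*. *Gli3* went from rank 4 to 2 in P1 GFP-. In P1 GFP+, *Ptch1* came before *Smo* and *Gli3* before *Gli2*.

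The comparison of ages asked which components changed as supporting cells matured. In GFP+ cells *Ptch1* was 1.76-fold lower at P6 than at P1 (log2 -0.82 ± 0.16, adjusted p = 0.0264) and *Gas1* 2.01-fold lower (log2 -1.01 ± 0.14, adjusted p = 0.011). These were 2 of the 8 members tested, with none higher, where 8.31% of all 17213 genes were lower and 12.1% higher. Both were lower in both P6 libraries than in either P1 library, and without P6 GFP+ replicate 2 the values were -1.01 and -1.11. Both calls were lost without P1 GFP+ replicate 1 (adjusted p = 0.142 for *Ptch1* and 0.0596 for *Gas1*) or without replicate 2 (0.137 and 0.094). *Gli2* did not pass (adjusted p = 0.128), though both P6 libraries (10.7 and 23.2 CPM) were below both P1 libraries (36.0 and 31.5). Its log2 value was -0.49 without P6 GFP+ replicate 1 and -1.54 without replicate 2. *Gli3*, *Boc* and *Smo* did not pass either. Without replicate 1 they were at 0.25, 0.14 and -0.06, and without replicate 2 at -0.83, -0.66 and -0.33. *Gli1* was 1.26 ± 0.69 with both libraries (adjusted p = 0.239), 1.95 without replicate 1 and -0.24 without replicate 2, and *Hhip* was 0.93, 1.54 and -0.32 in turn, so that no direction with age can be given for either in supporting cells.

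In GFP- cells, 3 of 9 members were higher at P6 than at P1 and 0 were lower, where 11.3% of all 18920 genes were higher and 7.87% lower. *Boc* was 2.67-fold higher (log2 1.42 ± 0.11, adjusted p = 0.000632), *Gli2* 2.17-fold (1.12 ± 0.14, adjusted p = 0.00337) and *Gas1* 1.96-fold (0.97 ± 0.17, adjusted p = 0.00947). Scaling to library totals shifted the median of all genes by -0.21 and the share of called genes that were higher from 58.9% to 33.6%, and these 3 remained higher (1.22, 0.93 and 0.77). *Gli1* (0.30), *Hhip* (0.04), *Smo* (0.14), *Ptch1* (0.24) and *Gli3* (-0.38) did not pass. Over the same interval the GFP- markers of bone rose, the summed osteoblast list going from 256 and 191 CPM to 1327 and 1317, and the cartilage list from 18641 and 18485 to 43967 and 40324. Of the 5 cartilage genes *Col2a1*, *Acan* and *Col9a1* rose, *Matn1* fell (log2 -1.42, adjusted p = 0.0058) and *Comp* did not pass (-0.34, adjusted p = 0.619). The part of these cells in the 3 rises was not tested.

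Whether the GFP+ to GFP- ratio differed between ages was tested directly in a model of all 8 libraries. The ratio takes the GFP- libraries as its reference, so age and dissection cannot be told apart in it either. For 4 of 9 members the ratio was higher at P1 than at P6, and for 0 it was lower, where 2.79% of all 19233 genes were higher and 3.6% lower. *Gas1* differed by 2.00 ± 0.25 on the log2 scale (adjusted p = 0.00446), *Gli2* by 2.04 ± 0.42 (adjusted p = 0.028), *Boc* by 1.64 ± 0.32 (adjusted p = 0.0256) and *Ptch1* by 1.09 ± 0.23 (adjusted p = 0.0298). For *Ptch1* the age comparison passed in GFP+ cells and not in GFP- cells, and for *Boc* and *Gli2* the reverse. *Gas1* passed in both, in opposite directions. Not passing does not mean no change. *Gli2* was also lower at P6 in GFP+ cells, at 10.7 and 23.2 CPM against 36.0 and 31.5 (log2 -0.99 with library totals). *Gli1* (-0.98 ± 0.69), *Hhip* (-0.91 ± 0.58), *Gli3* (-0.18 ± 0.45), *Smo* (0.36 ± 0.20) and *Shh* (-2.08 ± 1.30) did not pass. *Gas1* passed in each of the 13 alternative analyses, *Boc* and *Gli2* in 7 and *Ptch1* in 6. With library totals the median of all genes was -0.16 and the share of called genes with a higher ratio at P1 went from 43.6% to 33.0%.

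Further components of the pathway were taken from 4 fixed lists. Of 7 measured genes for ligands and their release, at P1 1 was higher and 4 were lower in GFP+ cells, and at P6 1 and 2, beside the shares of all genes given above for the members (25.5% higher and 28.1% lower at P1, 15.5% and 17.9% at P6). *Scube2*, a secreted protein that helps release the lipid-bound ligand, was 13.5-fold higher at P1 (20.0 and 29.1 CPM against 1.95 and 1.93, adjusted p = 6.28e-05) and 13.3-fold higher at P6 (33.3 and 49.5 against 3.05 and 3.16, adjusted p = 0.000956, log2 3.73 with both libraries and 3.44 without replicate 2). *Scube1*, of the same family, went the other way, 28.2-fold lower at P1 (2.86 and 2.89 against 91.2 and 83.4, adjusted p = 9.99e-06) and 8.61-fold lower at P6 (4.90 and 17.8 against 93.3 and 103, adjusted p = 0.0115). The P6 log2 value of *Scube1* was -3.11 with both GFP+ libraries and -4.30 without replicate 2. *Hhat*, the acyltransferase that palmitoylates the ligand, was lower at both ages (log2 -0.94 and -1.34, the latter -1.43 without replicate 2), and its P6 call was lost without either GFP- library (adjusted p = 0.119 and 0.0677). *Disp2* was lower in P1 GFP+ (-1.61), and in GFP- cells it was lower at P6 than at P1 (-2.06), with 12.5 and 39.1 CPM in the P1 libraries. The first call was lost without either P1 GFP+ library (adjusted p = 0.138 and 0.129) and with DESeq2 (0.0673), and the second without either P6 GFP- library (0.11 and 0.151).

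Of 5 further receptors and surface modulators, 2 were higher (*Cdon* and *Gpc6*) and 2 lower (*Lrp2* and *Gpc3*) at P1, against 25.5% and 28.1% of all genes, and 0 and 1 at P6, against 15.5% and 17.9%. *Gpc3*, a glypican known to compete with Ptch1 for the ligand, was 17.3-fold lower in GFP+ cells at P1 (11.5 and 7.95 CPM against 173 and 195, adjusted p = 3.54e-05) and 8.79-fold lower at P6 (9.06 and 25.5 against 172 and 131, adjusted p = 0.00778). The P6 log2 value was -3.14 with both GFP+ libraries and -4.05 without replicate 2. *Lrp2*, a large endocytic receptor, was 2.99-fold lower in P1 GFP+ (40.3 and 31.3 CPM against 72.3 and 159, adjusted p = 0.0131). This call was lost without P1 GFP+ replicate 2 (adjusted p = 0.0746) and with all 8 libraries in the fit (0.119), and its log2 value went from -1.58 to -0.91 without P1 GFP- replicate 2. At P6 its GFP+ libraries, at 17.5 and 136 CPM, lay on either side of the GFP- libraries at 59.7 and 55.5. *Gpc6*, a glypican of the same family as *Gpc3*, was lower at P6 in both populations (log2 -0.84 in GFP+, or -1.01 without P6 GFP+ replicate 2, and -0.65 in GFP-). The first call was lost without either P1 GFP+ library (adjusted p = 0.144 and 0.131) and the second without P6 GFP- replicate 2 (0.0945).

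The 20 genes of signal relay and Gli regulation had medians of -0.01 at P1 and -0.16 at P6. At P1, 5 were higher and 6 lower, shares near the 25.5% and 28.1% of all genes, and at P6 0 and 5, beside 15.5% and 17.9%. In P1 GFP+ cells *Arrb1* was lower (log2 -1.46) and *Btrc* higher (0.70) than in P1 GFP- cells. *Tulp3* was higher in P6 than in P1 GFP- cells (log2 0.37). That call was lost with library totals (adjusted p = 0.214), with the replicate block (0.0938) and in every fit leaving out 1 library. *Sufu*, which holds Gli proteins in the cytoplasm, passed no comparison (log2 -0.12 at P1 and -0.47 at P6, adjusted p = 0.254 and 0.0626), and without P6 GFP+ replicate 2 it was at -0.55 at P6 with adjusted p = 0.00706. *Evc* and *Evc2*, ciliary partners of Smo, were lower in GFP+ cells at P1 (-1.65 and -0.60) and P6 (-1.97 and -1.09, or -2.43 and -1.25 without replicate 2). For *Evc2* the calls were lost without either P1 GFP+ library (adjusted p = 0.06 and 0.0547) and without either P6 GFP- library (0.0684 and 0.069). *Gpr161*, a ciliary receptor that restrains the pathway through cAMP, was 1.41-fold higher in GFP+ cells at P1 (adjusted p = 0.0124) and 2.11-fold lower at P6 (log2 -1.08, adjusted p = 0.0459, and -1.50 without replicate 2). The P1 call was lost without either P1 GFP+ library (adjusted p = 0.0978 and 0.107) and with all 8 libraries in the fit (0.108). The P6 call was lost with library totals (0.0552), with the replicate number as a block (0.0533) and without either P6 GFP- library (0.275 and 0.193). In GFP+ cells *Gpr161* fell with age, from 22.6 and 23.8 CPM to 3.49 and 5.96 (4.57-fold, adjusted p = 0.00931). Its log2 value was -2.19, and -2.61 without P6 GFP+ replicate 2. It also fell in GFP- cells, from 17.4 and 18 CPM to 10.4 and 9.59 (log2 -0.63). That call was lost with all 8 libraries in the fit (adjusted p = 0.114), with the replicate block (0.0819) and without either P6 GFP- library. The β-arrestin genes, whose products bind Smo, changed with age in opposite directions in GFP+ cells. *Arrb1* rose from 27.0 and 23.2 CPM to 58.4 and 78.8 (2.90-fold, adjusted p = 0.00821, log2 1.54, and 1.33 without P6 GFP+ replicate 2). *Arrb2* fell from 36.2 and 45.0 to 18.7 and 19.7 (1.98-fold, adjusted p = 0.0161, log2 -0.98 with and without that library). Without P1 GFP+ replicate 2 both calls were lost (adjusted p = 0.0535 and 0.209), and that of *Arrb2* also without replicate 1 (0.0562).

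Of 14 genes reported elsewhere as Gli targets, 11 could be tested at P1, where 3 were higher and 7 lower in GFP+ cells, and 12 at P6, where 1 was higher and 7 were lower. Of all genes, 25.5% were higher and 28.1% lower at P1, and 15.5% and 17.9% at P6. The medians of the targets were -3.81 and -2.62. *Foxf2* was 60.0-fold lower at P1 (2.40 and 2.09 CPM against 164 and 130.3) and 7.74-fold lower at P6 (5.35 and 21.3 against 105 and 102, log2 -2.95, and -4.25 without replicate 2). *Foxc2* was 49.2-fold and 8.98-fold lower, and *Foxd1* 33.8-fold and 11-fold, and without replicate 2 their P6 log2 values went from -3.17 to -4.31 and from -3.46 to -4.39. *Ccnd2*, encoding cyclin D2, was 26.9-fold lower at P1 (2.66 and 3.37 CPM against 90.3 and 81.9). At P6 its GFP+ libraries stood at 2.48 and 21.6 CPM against 87.2 and 85.2 (log2 -2.83, adjusted p = 0.0496, and -5.10 without replicate 2), and that call was lost with library totals (0.0631), with DESeq2 (0.0684) and without either GFP- library (0.1 and 0.121). *Osr2* was at 0.0873 and 0.121 CPM in P1 GFP+ against 9.45 and 7.88 in P1 GFP- (log2 -6.29 ± 0.33), and at P6 its GFP+ libraries stood at 0.113 and 1.64 CPM against 3.16 and 6.50 (adjusted p = 0.0894). *Nkx3-2*, a regulator of cartilage, had no count in either P1 GFP+ library. It was 17.1-fold lower in GFP+ cells at P6 (log2 -4.10, and -4.69 without replicate 2) and 16.5-fold higher in P6 than in P1 GFP- cells (5.22 and 6.66 CPM against 0.185 and 0.586). *Foxf2* and *Foxc2* were higher in P6 than in P1 GFP+ cells (log2 2.65 and 3.29), and without replicate 2, the library with more mesenchymal RNA, the values were 1.36 and 2.18. Both calls were lost without P1 GFP+ replicate 2 (adjusted p = 0.146 and 0.102), and that of *Foxf2* (adjusted p = 0.0471) also with library totals (0.0545).

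At P1, *Mycn*, *Bcl2* and *Pthlh* were the targets higher in supporting cells. *Mycn*, a growth regulator, was 4.13-fold higher at P1 (48.1 and 64.5 CPM against 14.3 and 14.9, adjusted p = 0.000124) and 4.06-fold at P6 (62.7 and 49.6 against 13.5 and 14.1, adjusted p = 0.0021, log2 2.02, and 2.21 without replicate 2). *Bcl2*, an inhibitor of apoptosis, was 1.64-fold higher at P1 (adjusted p = 0.0258) and lost the call without either P1 GFP+ library (0.0693 and 0.113). *Pthlh*, the parathyroid hormone-related peptide, was 1.70-fold higher in P1 GFP+ (15.9 and 14.8 against 7.57 and 11.8) and 7.06-fold lower in P6 GFP+ (0.844 and 1.24 against 7.09 and 7.81, log2 -2.82, and -3.12 without replicate 2). The P1 call (adjusted p = 0.0333) was lost with library totals (0.0543) and without either P1 GFP+ library (0.16 and 0.0956). Within GFP+ cells it fell 13.6-fold with age (adjusted p = 0.00294), and by 3.76 on the log2 scale with both P6 libraries or 4.06 without replicate 2. *Ccnd1*, encoding cyclin D1, fell in both populations, by 1.23 on the log2 scale in GFP+ and by 0.91 in GFP-, the former call being lost without P1 GFP+ replicate 2 (adjusted p = 0.0647). The difference between them was 0.09 ± 0.10 at P1 and -0.25 ± 0.25 at P6 and passed at neither age. *Bcl2* was lower in P6 than in P1 GFP- cells (log2 -0.89), a call lost without either P6 GFP- library, and it also passed as lower with age in GFP+ cells.

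**Figure D4:**
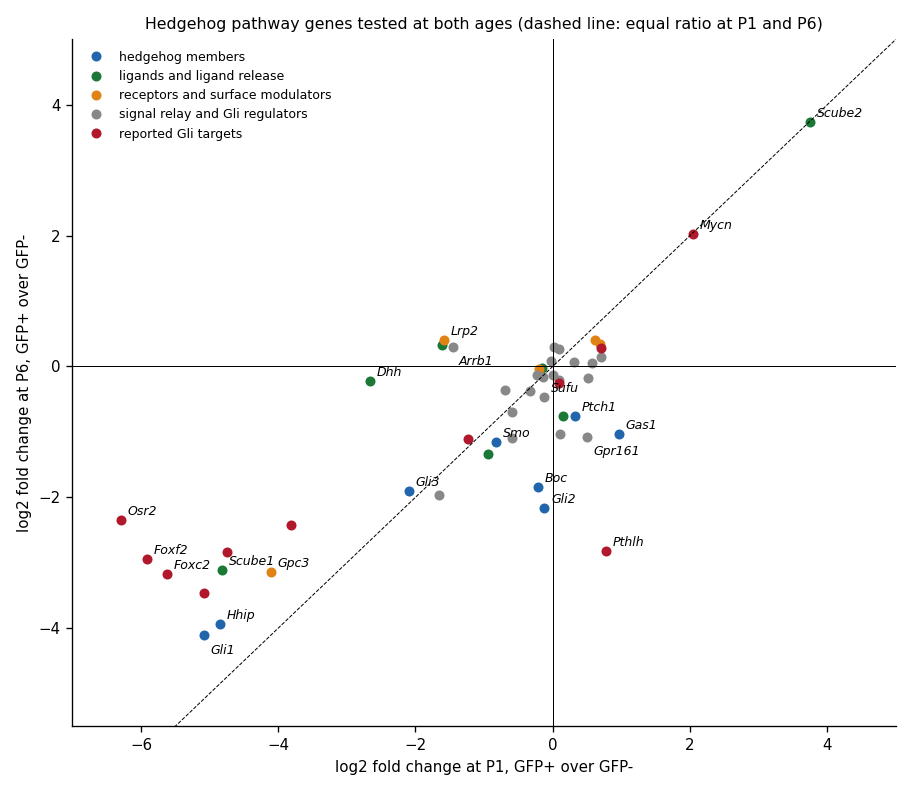
Log2 fold change of GFP+ over GFP- at P1 (horizontal axis) and P6 (vertical axis) for every listed pathway gene tested at both ages, coloured by list, with a dashed line where the ratios are equal. *Gli1*, *Hhip* and the *Fox* and *Osr2* targets lay at the lower left, *Scube2* and *Mycn* at the upper right, and *Gas1*, *Pthlh*, *Gli2* and *Boc* below the line.

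The genes whose profile was most like that of *Gli1* over the 8 libraries were ranked among 19232 genes by Pearson correlation of log2(CPM + 0.5), as a description without a test. The first 5 were *Samhd1* (0.9985), *St3gal2* (0.9978), *Lix1l* (0.9975), *Shc1* (0.9974) and *Tbc1d2b* (0.9973). *Hhip* was at rank 23 (0.9955), *Gli3* at 1322, *Smo* at 1338, *Shh* at 3627, *Boc* at 4207, *Gli2* at 4633, *Ptch1* at 7991 (0.3211) and *Gas1* at 9967 (0.0210). The libraries fall into GFP+ and GFP- clusters, and genes that share this split with *Gli1* rank high whatever their other properties.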

How the data were processed

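RNA-seq counts were available for 8 libraries in 4 groups. Per the labels, mRNA was made into cDNA with a TruSeq v2 kit, which does not mark strand, and sequenced in pairs. According to the study's methods and the submitters' processing notes, the authors aligned the reads to mm9 with TopHat (version 1.4.0 in the notes), counted whole reads per Ensembl gene with HTSeq and deposited those counts unnormalised; the counting mode is not given in the sources used here. Rows for reads without a gene were left out of all totals. The deposited identifiers were joined to the NCBIM37 annotation (34391 of 36536 genes).

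Each comparison used its own 4 libraries, and the age by population test all 8, in edgeR 4.0.16 (R 4.3.3) with the quasi-likelihood test, TMM scaling and filterByExpr with a minimum count of 10 and a minimum total of 15. P-values were adjusted over all genes tested by the Benjamini-Hochberg method, and an adjusted p below 0.05 passed. The scripts were tested on simulated counts with known changes. In the text, ± is the standard error of the log2 fold change from 2 libraries per group. CPM divide a gene's count by the library's gene total. A leave-one-out fit takes its spread from the group that kept 2 libraries.

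The members and gene lists were chosen with earlier results of these data known. The genes named are the members, *Ihh*, *Dhh*, *Sufu* and *Cdon*, in each comparison the 3 largest changes per list among those past the test and at 1 CPM or more in the higher group, and the 5 genes most correlated with *Gli1*. *Mycn*, and values of a listed gene in a comparison where the rule did not name it, were chosen after their values were seen. *Disp1* had no matching row, and 1 further pathway gene is not reported here and was left out of the lists. Alternatives were DESeq2 size factors and test (1.42.0), scaling to library totals, dropping the filter, fitting each comparison on the 8 libraries at once, a replicate block, and leaving out each library. Figures were drawn with matplotlib 3.10.9 in Python 3.11.15.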

Additional observations from a re-analysis of the deposited data

Results flagged for a closer look

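A different GFP+ to GFP- ratio at P1 and P6, tested by the interaction of age and population in edgeR, was found for the 10 genes given here. Of all 19233 genes, 2.79% had a higher ratio at P1 and 3.6% a lower one. Apart from the members and *Dhh*, the genes were named by a rule that takes those past the test, so their number is not a result. *Tulp3* also passed and is not among them, and it lost the call with library totals (adjusted p = 0.0924). Age and dissection cannot be told apart in this ratio. Among the members, the P1 log2 ratio exceeded the P6 log2 ratio by 1.09 for *Ptch1*, 2.04 for *Gli2*, 1.64 for *Boc* and 2.00 for *Gas1*. For *Gas1* the ratio changed sign, from 0.96 to -1.03, and all 4 P1 GFP+ to GFP- library pairs were above 1 while all 4 at P6 were below.

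Among the other pathway genes the difference of ratios was -2.43 for *Dhh*, -1.75 for *Arrb1* and -2.95 for *Foxf2*, each with the higher ratio at P6. It was 1.58 for *Gpr161*, 1.15 for *Arrb2* and 3.59 for *Pthlh*, each with the higher ratio at P1. *Foxf2* was at -1.64 without P6 GFP+ replicate 2. The summed otic mesenchyme markers were at 1.97% of the GFP- level in P1 GFP+ and at 9.84% in P6 GFP+, in the same direction as *Foxf2*, and their part in its value was not tested. *Dhh* was at -2.33 without that library, *Pthlh* at 3.90 and *Gpr161* at 2.01. *Gpr161* did not pass with the replicate block (adjusted p = 0.0526) or in 6 of the 8 analyses that leave out 1 library (0.0683 to 0.122), and *Foxf2* did not with the block (0.0898) or in 6 of those 8 (0.0808 to 0.186). *Arrb2* did not pass in 4 of the 8 (0.0526 to 0.0967), without P1 GFP+ replicate 2, P1 GFP- replicate 2 or either P6 GFP- library. Of the 13 alternatives in all, *Boc* and *Gli2* passed in 7 and *Ptch1* in 6.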

How the results depend on the processing

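At P1 the calls of *Smo*, *Gli1*, *Gli3*, *Hhip* and *Gas1*, and at P6 those of *Gli1*, *Gli2*, *Gli3*, *Hhip* and *Boc*, kept their direction and passed in each of the 10 alternatives run for them. In GFP- cells *Boc*, *Gli2* and *Gas1* passed in 11 of 11. With 2 libraries per group, leaving out 1 moved most counts. Genes past the test ranged from 6412 to 11647 at P1 (members 5 to 8), from 1940 to 9806 at P6 (members 5 to 8), from 680 to 9491 with age in GFP+ (members 0 to 6), from 1140 to 4867 with age in GFP- (members 3 to 4) and from 337 to 2991 for the interaction (members 1 to 6). The low ends came from leaving out P1 GFP+ replicate 1 at P1, P6 GFP- replicate 2 at P6, P1 GFP+ replicate 2 with age in GFP+ and in the interaction, and P6 GFP- replicate 1 with age in GFP-.

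Without the filter on low counts, 5854 genes and 4 members passed with age in GFP+, 5444 genes with age in GFP- and 3201 in the interaction, where the DESeq2 test gave 2304. The replicate block gave 750 genes and 2 members in the interaction, *Ptch1* (adjusted p = 0.0643) and *Gli2* (0.0598) being lost, and let *Ptch1* pass at P1 (adjusted p = 0.0313). Deviations of same-numbered libraries correlated at 0.0214 (P1), 0.0855 (P6), -0.0835 (GFP+) and -0.277 (GFP-). These values cannot tell whether same-numbered GFP+ and GFP- libraries came from the same sort. Crossing the numbers in GFP-, chosen after seeing the data, gave 5481 genes and 3 members.

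Directions turned for values that had not passed. With library totals these were *Ihh* with age in GFP+ (-0.02) and *Smo* (-0.05), *Hhip* (-0.15) and *Sufu* (-0.10) with age in GFP-. Leaving out libraries gave a range of -0.30 to 0.04 for *Gli2* and -0.21 to 0.62 for *Ihh* at P1, and of -0.30 to 0.83 for *Cdon* at P6. With age in GFP+ the ranges were -0.24 to 1.95 for *Gli1*, -0.83 to 0.25 for *Gli3*, -0.32 to 1.54 for *Hhip*, -0.66 to 0.14 for *Boc* and -0.28 to 0.45 for *Ihh*, and in GFP- -0.10 to 0.18 for *Hhip*. In the interaction they were -1.61 to 0.58 for *Gli1*, -0.60 to 0.48 for *Gli3*, -1.47 to 0.40 for *Hhip* and -0.06 to 1.00 for *Cdon*. The cause of these turns was not tested.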
